A study of Caenorhabditis elegans with 4 samples.

Results

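Metallothionein, ferritin and cadmium-response transcripts of the nematode Caenorhabditis elegans were examined across 4 whole-worm arrays. The set was fixed by gene name as mtl-1, mtl-2, ftn-1, ftn-2, cdr-1, cdr-2, cdr-4, cdr-5, hmt-1 and pcs-1, and every probe set that the platform's probe-to-gene table assigns to one of these genes was taken. Of these 10 genes, 9 were measured, by 12 probe sets, out of 17118 genes named by a probe set of their own. The table assigns no probe set to cdr-5, which was not analysed here.

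Metallothioneins are small, cysteine-rich proteins that bind zinc, copper and cadmium. In this worm both metallothionein genes are induced by cadmium in the intestine, and mtl-1 is also known as a target of the FOXO factor DAF-16, which is active when insulin signalling is low. Ferritins store iron as a mineral inside a protein shell, and ftn-1 transcription in the worm intestine falls when iron is scarce. The CDR proteins are named for cdr-1, a gene of intestinal cells that cadmium induces strongly. The pcs-1 gene acts in the phytochelatin route, in which a peptide made from glutathione chelates cadmium. The ABC transporter gene hmt-1 is required for cadmium tolerance.

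The worms were wild-type young adult hermaphrodites raised on plates with Escherichia coli OP50, and each of the 4 groups was read on 1 Affymetrix C. elegans Genome array. In 3 groups the worms spent 24 h at 20 °C, unfed, in K-medium, a salt solution, with 1 of 3 chemicals, namely BPA (bisphenol A), DEHP (a phthalate diester) or NP (read here as nonylphenol), at 1/100 of that chemical's own 24 h LC50, its median lethal concentration. The control is described as untreated, and its labels mention neither medium nor fasting, so chemical, medium and lack of food cannot be told apart in any comparison with it. With 1 array a group there was no replicate, no error and no test, and the number of arrays limits the precision of every value given here. RNA came from whole worms, so fewer intestinal cells and less RNA per intestinal cell cannot be told apart either.

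Intensities were scaled so that the arrays shared 1 median, and values in the text are these scaled intensities unless said otherwise. A gene was taken as detected in a comparison when its brighter array reached the pooled median of 129. Because the median detected gene lay 0.0099 (BPA), 0.16 (DEHP) and 0.38 (NP) log2 above the control after scaling, changes are given relative to that gene and called relative log2 changes, and "2-fold" refers to them. Intensities of different genes come from different probes and are not set against each other. Actin control probes had a 3-prime to 5-prime ratio of 1.19 in the control, 1.22 with BPA, 1.37 with DEHP and 1.88 with NP. In the same order the ratio was 0.95, 0.83, 0.93 and 1.19 for GAPDH and 6.66, 8.28, 8.01 and 8.98 for ubiquitin, so all 3 were highest on the NP array, and the BPA and DEHP arrays did not stand in 1 order. One label field names fibroblast cultures as the RNA source, yet all 13 intestine, all 12 muscle, all 12 neuron and all 12 germline marker genes of the worm on the array were detected in each comparison with the control. Of 9 epidermis markers 8 were. Detection needs only the brighter array of a comparison. Some markers passed through 1 array alone. The neuron marker eat-4 passed for DEHP and NP through the control alone, with 295 against 86.6 and 80.6. So did the neuron marker unc-17 for DEHP, with 249 against 127. The epidermis marker rol-6 did so for BPA and NP, with 157 against 85.7 and 67.2. The epidermis marker che-14 passed through the exposed arrays alone, with 92.0 in the control.

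Against the control, mtl-1 was lower on the BPA and DEHP arrays, ftn-1 was lower on the DEHP array and higher on the NP array, and cdr-4 was higher on the DEHP array. These 3 genes were the members at least 2-fold from the control in any comparison in which they were detected. On the BPA array 1 of 9 detected members was 2-fold from the control, against 2.71% of 8819 detected genes. On the DEHP array it was 3 of 8, against 8.54% of 8915 genes, and on the NP array 1 of 8, against 10.3% of 8940. The median relative log2 change of the detected members was -0.14 with BPA, 0.087 with DEHP and 0.12 with NP, where that of all detected genes is 0. Without regard to direction, the median size of change was 0.29 against 0.20 for all detected genes on the BPA array. It was 0.56 against 0.26 on the DEHP array and 0.21 against 0.35 on the NP array.

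The metallothionein transcript mtl-1 read 2438 in the control, 739.8 with BPA, 710.2 with DEHP and 5544 with NP. The NP array was thus the brightest, and the BPA and DEHP arrays lay close together below the control. The relative log2 change was -1.73 for BPA, a 3.32-fold lower level, and -1.94 for DEHP, 3.83-fold lower. For NP it was 0.81, or 1.75-fold higher, which is under 2-fold. Over the 4 arrays, with the median gene set equal, the highest value was 6.70-fold the lowest, and 85 of 9251 genes detected on at least 1 array (0.919%) ranged as widely. The median gene ranged over 0.59 log2 and mtl-1 over 2.74. Its single probe set has the plain _at suffix, given to sets designed against 1 transcript.

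The other metallothionein gene, mtl-2, was read by 3 probe sets that did not all give the same pattern. The set brightest on average over the arrays read 2680 in the control, 2256 with BPA, 2408 with DEHP and 3899 with NP, with relative log2 changes of -0.26, -0.31 and 0.16, the last of which was -0.045 against genes of like span. A further probe set stayed as close to the control, at -0.19, -0.016 and 0.21. The remaining probe set had 2687 in the control, 1139 with BPA, 1342 with DEHP and 2665 with NP. It was 2-fold lower for BPA (-1.25) and DEHP (-1.16) and read -0.39 for NP, so on the BPA and DEHP arrays it lay on the side of mtl-1. All 3 are of the _s_ or _x_ type, the suffixes of probe sets that may also bind other transcripts, and cross-matching with mtl-1 was not tested. The gap between the probe sets was 1.06 log2 for BPA and 1.14 for DEHP. Of 2094 and 2104 genes with several detected probe sets, 2.82% and 1.71% had a gap as wide. For NP the gap was 0.60, as wide in 31% of 2116 genes. A 2-fold lower mtl-2 level on the BPA and DEHP arrays therefore rests on 1 probe set of 3.

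**Figure D1:**
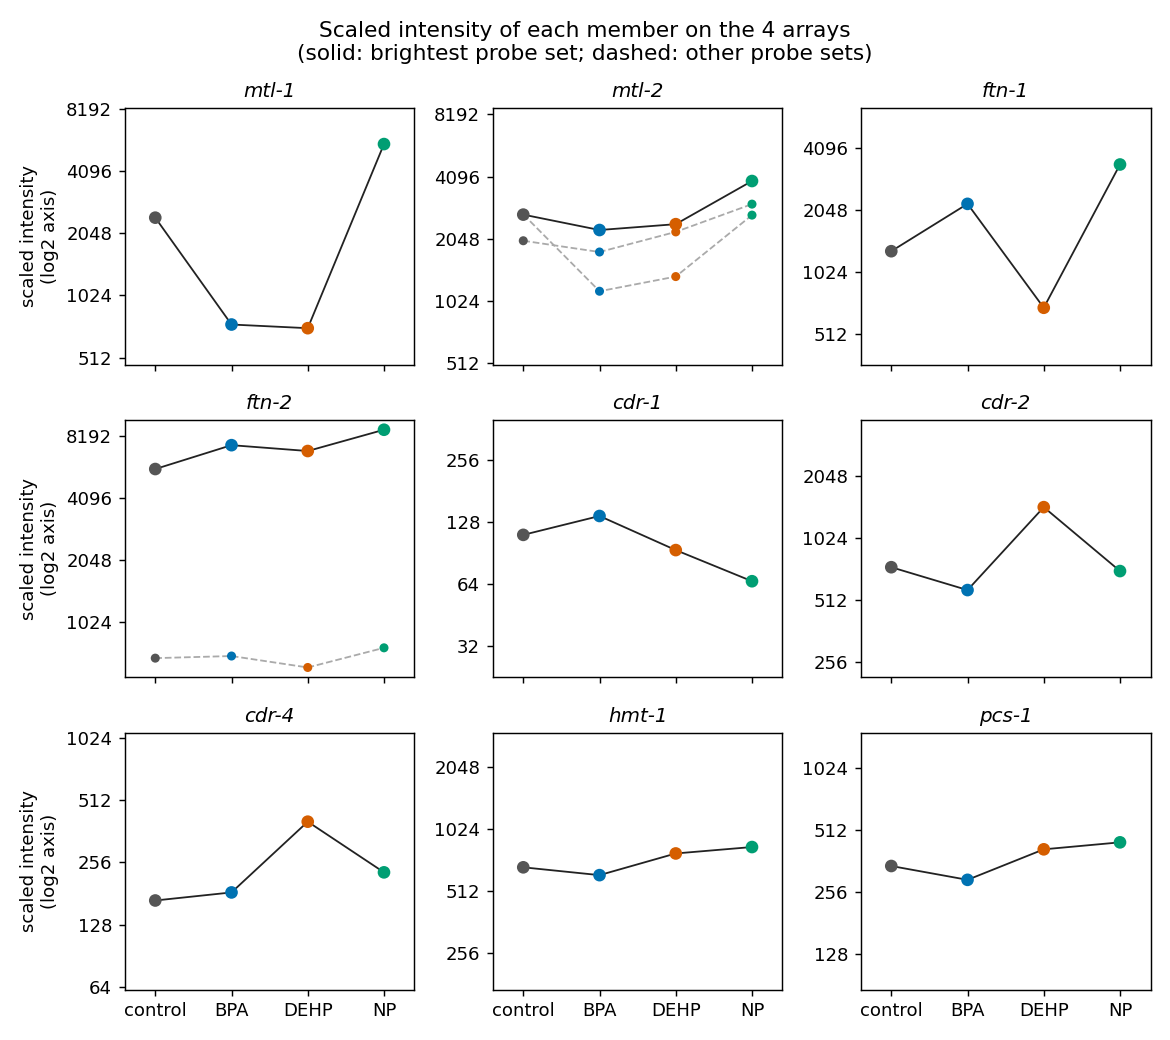
Scaled intensity (log2 axis, the same fold span in every panel) of each measured gene on the control, BPA, DEHP and NP arrays, 1 array each. Points are arrays, the solid line joins the brightest probe set of a gene and dashed lines join its other probe sets. The points for mtl-1 run from 710.2 to 5544, ftn-1 is lowest for DEHP, cdr-2 and cdr-4 are highest for DEHP, and hmt-1 and pcs-1 stay nearly level.

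The ferritin transcript ftn-1 read 1295 in the control, 2197 with BPA, 688.9 with DEHP and 3409 with NP. It was highest on the NP array and lowest on the DEHP array, with BPA above the control. Its relative log2 change was 0.75 with BPA, -1.07 with DEHP and 1.02 with NP, and the last 2 lie close to the 2-fold line. Under 10 alternative ways of processing the DEHP value ran from -1.13 to -0.91 and the NP value from 0.81 to 1.40, past 2-fold in 8 and in 6 of them. Over the 4 arrays the highest value was 4.25-fold the lowest, a range reached by 258 of 9251 genes (2.79%). Its probe set is of the _s_ type.

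The more broadly expressed ferritin gene ftn-2 varied less. Its brighter probe set read 5678 in the control, 7411 with BPA, 6943 with DEHP and 8804 with NP. The relative log2 changes were 0.37, 0.13 and 0.25, all above 0 and far from 2-fold, although the DEHP change was -0.086 as the mean over both probe sets. The dimmer probe set read 687.9, 704.3, 619.9 and 771.9 on the same arrays, with changes of 0.024, -0.31 and -0.21. The 2 probe sets thus differed in the sign of the DEHP and NP changes, by 0.44 and 0.47 log2, gaps that 24.4% of 2104 and 43.3% of 2116 genes with several detected probe sets equalled or passed. Both are of the _s_ or _x_ type. A range over the 4 arrays at least as wide as the 0.37 log2 of ftn-2 was found for 75.6% of genes.

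The cadmium-responsive gene cdr-1 was dim on every array. Its intensity was 111 in the control, 136 with BPA, 93.3 with DEHP and 65.9 with NP, and only BPA reached the detection level. The relative log2 change for BPA was 0.29. For DEHP and NP it was -0.40 and -1.13, with both arrays of each comparison below the detection level, so neither value was counted.

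The related genes cdr-2 and cdr-4 were both highest on the DEHP array. For cdr-2 the control read 741.4, BPA 574.5, DEHP 1449 and NP 710.2, with relative log2 changes of -0.38, 0.81 and -0.44. The DEHP change lay under 2-fold, between 0.76 and 0.97 under the alternatives. For cdr-4 the control read 167, BPA 183, DEHP 403 and NP 229, with changes of 0.12, 1.11 and 0.074. The DEHP value was 2.16-fold higher than the control and kept its side of 2-fold under all 9 alternatives in which the gene was detected. That probe set is of the _s_ type, and close relatives within the family could share its signal.

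In the WBcel235 gene table cdr-4, cdr-7, cdr-6, cdr-2 and cdr-3 lie in 1 stretch of 6 protein-coding genes, and 4 of these 5 cdr genes were on the array. The neighbour cdr-6 read 1065 in the control, 849.98 with BPA, 1009 with DEHP and 1176 with NP, and its relative log2 changes were -0.33, -0.24 and -0.24. It did not share the higher DEHP level of cdr-2, the gene next to it. The outermost gene, cdr-3, stayed below the detection level on all 4 arrays, at 31.9 or less.

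The genes pcs-1 and hmt-1 were nearly level. Phytochelatin synthase, pcs-1, read 343 in the control, 294 with BPA, 413 with DEHP and 447 with NP, with relative log2 changes of -0.23, 0.11 and 0.0017. The ABC transporter gene hmt-1, which is required for cadmium tolerance, read 667 in the control, 611 with BPA, 778 with DEHP and 836 with NP, with changes of -0.14, 0.065 and -0.053, the last running from -0.19 to 0.33 under the alternatives. Relative to the median gene both were lowest for BPA and highest for DEHP, by amounts that are small against all genes, while the scaled intensity was highest for NP. Ranges at least as wide as theirs were found for 79.4% (pcs-1) and 94% (hmt-1) of the 9251 genes. Together with mtl-2 and ftn-2 on their brightest probe sets, they made up 4 members within 0.5 log2 of the control on all 3 exposed arrays. Changes within 0.5 log2 were common, since the median size of change over all detected genes was 0.20 (BPA), 0.26 (DEHP) and 0.35 (NP). The share of all genes within 0.5 log2 on all 3 arrays was not computed.

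**Figure D2:**
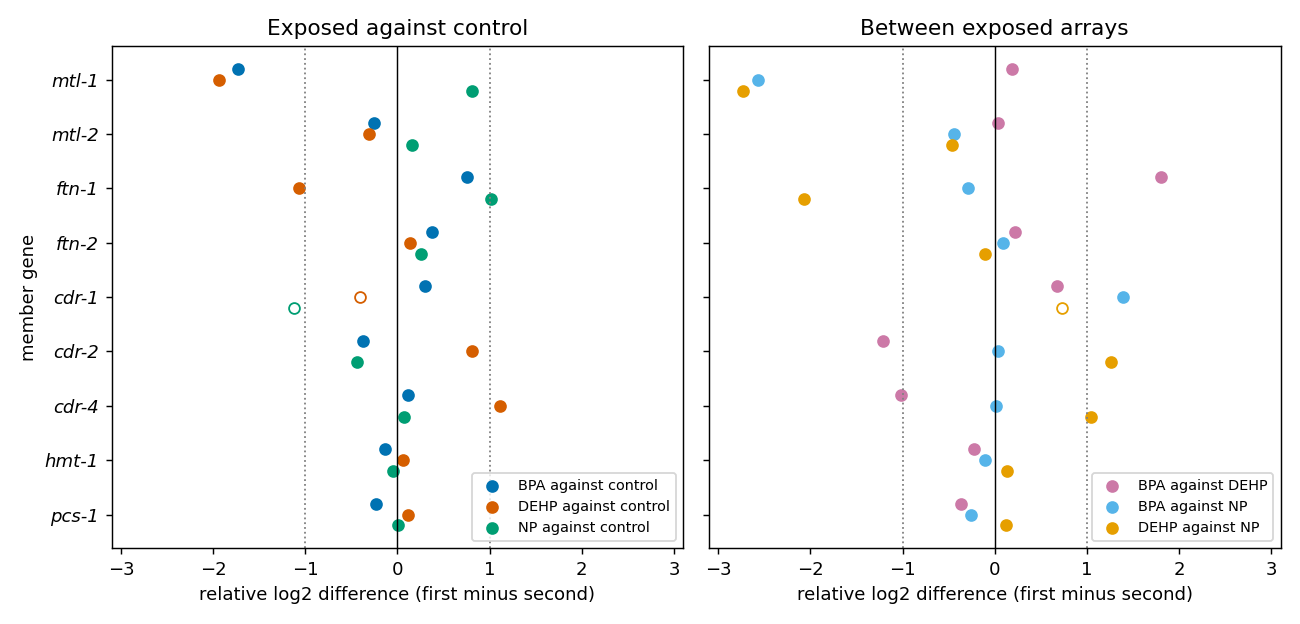
Relative log2 difference of each measured gene (brightest probe set), for exposed arrays against the control on the left and between exposed arrays on the right, 1 array each. Filled points are detected and open points are not, and dotted lines mark 2-fold. On the left, mtl-1 lies at -1.73 and -1.94 for BPA and DEHP, and on the right the widest differences are those of mtl-1 and ftn-1 against NP or DEHP.

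The exposed arrays share the medium and the lack of food, so they were also set against each other, although the chemicals were dosed by toxicity and not at matched concentrations. Of the members, 3 of 9 were 2-fold apart between BPA and DEHP, against 4.94% of 8853 genes. Between BPA and NP it was 2 of 9, against 8.93% of 8944, and between DEHP and NP 4 of 8, against 7.46% of 8886. These comparisons share arrays with one another and are not independent. The 2 members apart between BPA and NP were mtl-1 and cdr-1. Of these, cdr-1 reached the detection level of 129 through the BPA array alone, with 136 against 65.9 for NP. Its place in that count therefore rests on a dim signal.

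The widest differences between exposed arrays were those of mtl-1. It was 5.91-fold lower for BPA than for NP (relative log2 -2.56) and 6.64-fold lower for DEHP than for NP (-2.73). BPA and DEHP differed by 0.18. For ftn-1, DEHP was the array apart, 3.48-fold below BPA (1.80 log2 for BPA minus DEHP) and 4.21-fold below NP (-2.07 for DEHP minus NP), while BPA and NP differed by -0.29. The order of the arrays for the 2 genes was thus not the same, since BPA lay beside DEHP for mtl-1 and beside NP for ftn-1.

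DEHP also stood apart for cdr-2 and cdr-4, on the high side. Its cdr-2 level was 2.31-fold above BPA (-1.21 log2 for BPA minus DEHP) and 2.4-fold above NP (1.26 for DEHP minus NP). For cdr-4 these differences were -1.01 and 1.05, so near the 2-fold line that the second fell under it in 4 of 9 alternatives. The cdr-1 level of BPA was 2.62-fold above that of NP (1.39 log2), with the NP intensity below the detection level. BPA and NP differed by 0.036 for cdr-2 and by 0.018 for cdr-4, and among mtl-2, ftn-2, hmt-1 and pcs-1, on their brightest probe sets, the widest difference between exposed arrays was -0.46, for mtl-2 between DEHP and NP.

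Other values of the arrays are given here beside those of the members. On the NP array short genes lay higher. With the genes put in 5 equal groups by span, the median relative log2 change was 0.21 in the shortest group and -0.21 in the longest. The medians of the shortest group were -0.034 for BPA and -0.0087 for DEHP. Of the 9 members, 5 (mtl-1, mtl-2, ftn-1, ftn-2 and cdr-2) belong to the shortest group. Taken against the median of their own group, a step chosen after seeing the data, the NP changes were 0.60 for mtl-1 and 0.81 for ftn-1, and those of mtl-1 for BPA and DEHP were -1.70 and -1.93. The part of transcript length and RNA integrity in the NP values was not tested further.

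The summed intensity of the 13 intestine markers, none of which was at the intensity floor of 28.3 on any array, was 46654 in the control, 44001 with BPA, 44454 with DEHP and 43420 with NP. Relative to the median gene the sum changed by -0.094, -0.23 and -0.48 log2, and the median over the 13 genes was -0.16, -0.28 and -0.76. The aspartyl protease gene asp-1, with 22871 in the control, made up much of the sum and read -0.39 for NP. Markers of other tissues were lower too. The 12 muscle markers had medians of -0.18, -0.69 and -1.01, with 4 genes 2-fold lower for DEHP and 6 for NP. The 12 neuron markers had -0.19, -0.84 and -0.63, with 4 and 5 genes 2-fold lower. Neither list had a 2-fold gene for BPA. Over all detected genes 2.71% (BPA), 8.54% (DEHP) and 10.3% (NP) were 2-fold from the control in either direction. Under the alternatives the count of lower muscle markers ran from 3 to 4 for DEHP and from 3 to 7 for NP. That of neuron markers ran from 1 to 5 and from 2 to 7. The 12 germline markers had medians above 0, of 0.16, 0.25 and 0.14, and so had the 8 detected epidermis markers, of 0.41, 0.34 and 0.14. For NP both medians kept their sign in only 7 of 10 alternatives. The summed epidermis level read -0.15 for NP, where rol-6 was 2-fold lower (-1.60) and che-14 2-fold higher (1.34). Each was detected through its brighter array alone, rol-6 with 67.2 against a control of 157 and che-14 with 303 against 92.0. Both calls were lost above the 75th percentile, and that of che-14 also as the mean over probe sets. The epidermis marker dpy-7 was 2-fold higher for DEHP (1.03), a call lost above the 75th percentile too. Of the intestine markers ifc-2 (-1.48) and ifb-2 (-1.19), for intermediate filaments, and act-5 (-1.1), for actin of microvilli, were 2-fold lower on the NP array. On the DEHP array ifb-2 (-1.09) was the intestine marker 2-fold lower, and on the BPA array none was. Without centring on the median gene or without the filter on dim genes, ifc-2 alone was 2-fold lower for NP and none for DEHP, and over all alternatives the NP count ran from 1 to 5. The part of tissue makeup in the members' values was not tested.

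For 4 members the 3 genes with the most similar changes were sought among 5137 bright genes, by the largest difference over the 3 comparisons with the control. Bright here means above the floor on all 4 arrays and at or above 613 on the brightest array only. The gene nearest to mtl-1 was F49C12.11, which read 5190 in the control, 2248 with BPA, 2258 with DEHP and 9203 with NP. Its relative log2 changes were -1.22, -1.36 and 0.45, within 0.58 of mtl-1. Next came ZC395.5 (within 0.69) and the glutathione S-transferase gene gst-20 (within 0.81), so no bright gene matched mtl-1 to within 0.3 log2.

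The gene nearest to ftn-1 was hsp-12.3, of the small heat shock family, with 1124 in the control, 2020 with BPA, 710.1 with DEHP and 3557 with NP. Its changes of 0.84, -0.82 and 1.28 lay within 0.27 of those of ftn-1, and no other bright gene lay within 0.3. For cdr-2 there were 11 genes within 0.3, and the nearest was the infection-response gene irg-7 (-0.37, 0.80 and -0.57, within 0.13), followed by F56F10.1 and nspg-6. The small changes of mtl-2 were matched within 0.3 by 776 genes, the nearest being ndc-80, elpc-3 and ascc-1. Likeness over 3 comparisons that share 1 control array says nothing of shared function.

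**Figure D3:**
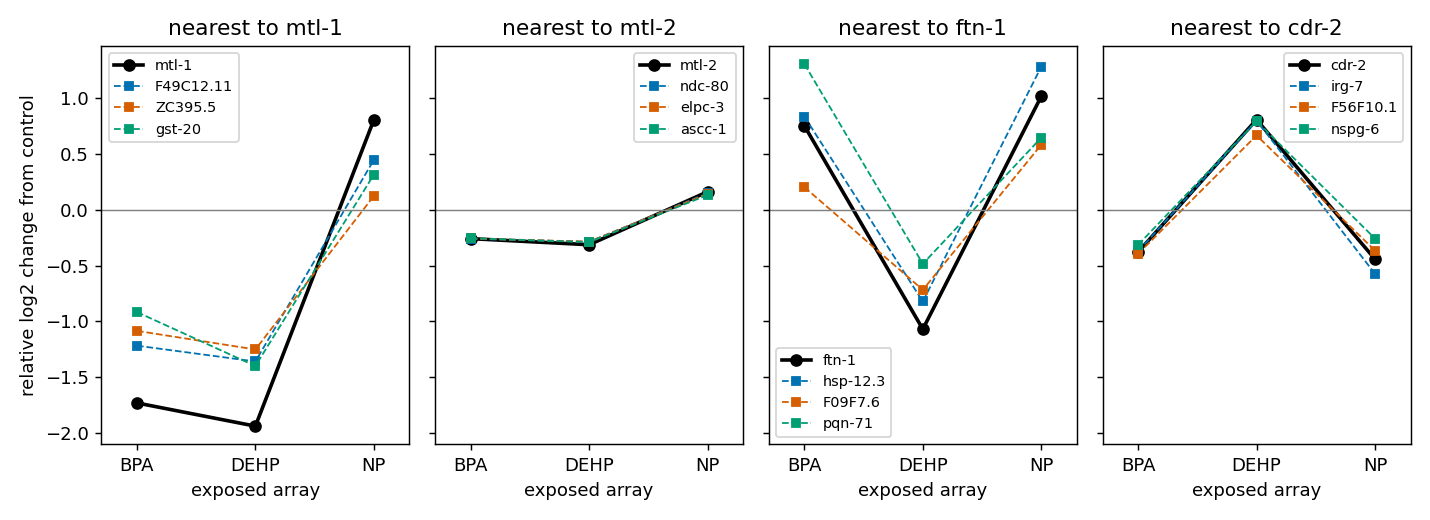
Relative log2 change from the control on the BPA, DEHP and NP arrays (1 array each) for mtl-1, mtl-2, ftn-1 and cdr-2 in black and for the 3 bright genes nearest to each in colour. The nearest genes of mtl-1 follow it at smaller size, and hsp-12.3 stays within 0.27 of ftn-1.

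The zinc, iron and copper genes held 1 value at least 2-fold from the control. The shares of all detected genes 2-fold from the control in either direction were 2.71% (BPA), 8.54% (DEHP) and 10.3% (NP). They are to be read beside the counts of these lists and of those below. Of 15 detected zinc transporter genes none was 2-fold from the control for BPA or DEHP, and for NP the importer gene zipt-2.2 was lower (-1.3), a call lost under 4 of 10 alternatives. On the BPA and DEHP arrays zipt-2.2 read -0.81 and -0.87. The list's medians were 0.066, -0.035 and -0.10 for BPA, DEHP and NP. Of the iron and heme genes, 7 were detected for BPA and DEHP and 8 for NP, and none was 2-fold changed as processed here. Their medians were 0.18, 0.15 and 0.20. The iron-regulated aconitase gene aco-1 read 0.68, 0.48 and -0.77, and the iron-sulfur scaffold gene iscu-1 -0.72, -0.51 and 0.45. The 5 copper genes had medians of -0.0044, -0.089 and 0.34 with no 2-fold member.

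Among other cadmium-response genes, 6 were detected for BPA and DEHP and 5 for NP. The P-glycoprotein gene pgp-1 was higher for DEHP (2.07), with 559 against a control of 120 that lay below the detection level. The glutathione S-transferase gene gst-4 was lower for NP (-1.06), a call lost under 5 of 10 alternatives, among them quantile normalization and loess. The list's medians were -0.23, 0.047 and -0.85, the last running from -0.86 to -0.16 under the alternatives, and for NP all 5 detected genes lay below the median gene. In the glutathione list, which supplies the substrate of phytochelatin synthase, the cystathionine gamma-lyase gene cth-1 was higher for DEHP (1.5) and was the only 2-fold value among the 6 detected genes on the 3 arrays. The rate-limiting gene gcs-1 read -0.020, 0.10 and -0.073.

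The stress genes known to rise with DAF-16 activity went both ways. Of 10 detected genes, 4 were 2-fold lower and 1 was higher on the BPA array, and likewise on the DEHP array, while 1 was lower and 1 higher on the NP array. Over all detected genes 2.71% (BPA), 8.54% (DEHP) and 10.3% (NP) were 2-fold from the control in either direction. The list's medians were 0.059, -0.45 and 0.17. The superoxide dismutase gene sod-3 was the gene of this list 2-fold lower on all 3 arrays, at -1.98, -1.5 and -1.06. It read 142 in the control and 36.3, 55.9 and 88.8 on the exposed arrays, which lie below the detection level, and its NP call was lost under 5 of 10 alternatives. The higher gene for NP was hsp-12.3. Of the small heat shock family, hsp-12.6 had 1265 in the control, 424.0 with BPA, 75.6 with DEHP and 2650 with NP. Its relative log2 changes were -1.59, -4.22 and 0.69. The heat shock gene hsp-16.2 read -3.03, -2.44 and -0.69, and hsp-16.41 was at least 4.90-fold lower for BPA, where it fell below the floor, and read -2.01 for DEHP and -0.092 for NP. The BPA and DEHP intensities of both hsp-16 genes, and the DEHP intensity of hsp-12.6, lay below the detection level, so the size of these changes is uncertain. In the same list lys-7, for a lysozyme, was higher for DEHP (2.22), and the glyoxylate enzyme gene icl-1 was higher for BPA (1.26).

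Of 9 detected genes for regulators linked to the members, none was 2-fold from the control for BPA or DEHP. On the NP array all 9 lay below the median gene, with a median of -0.76 that ran from -1.14 to -0.37 under the alternatives, and the Mediator subunit gene mdt-15 (-1.56) and the stress and development regulator gene pqm-1 (-1.04) were 2-fold lower, pqm-1 not without centring. The daf-16 transcript itself read 0.0094, 0.042 and -0.97, and the intestinal GATA factor gene elt-2, which is also among the intestine markers, 0.19, -0.33 and -0.76.

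**Figure D4:**
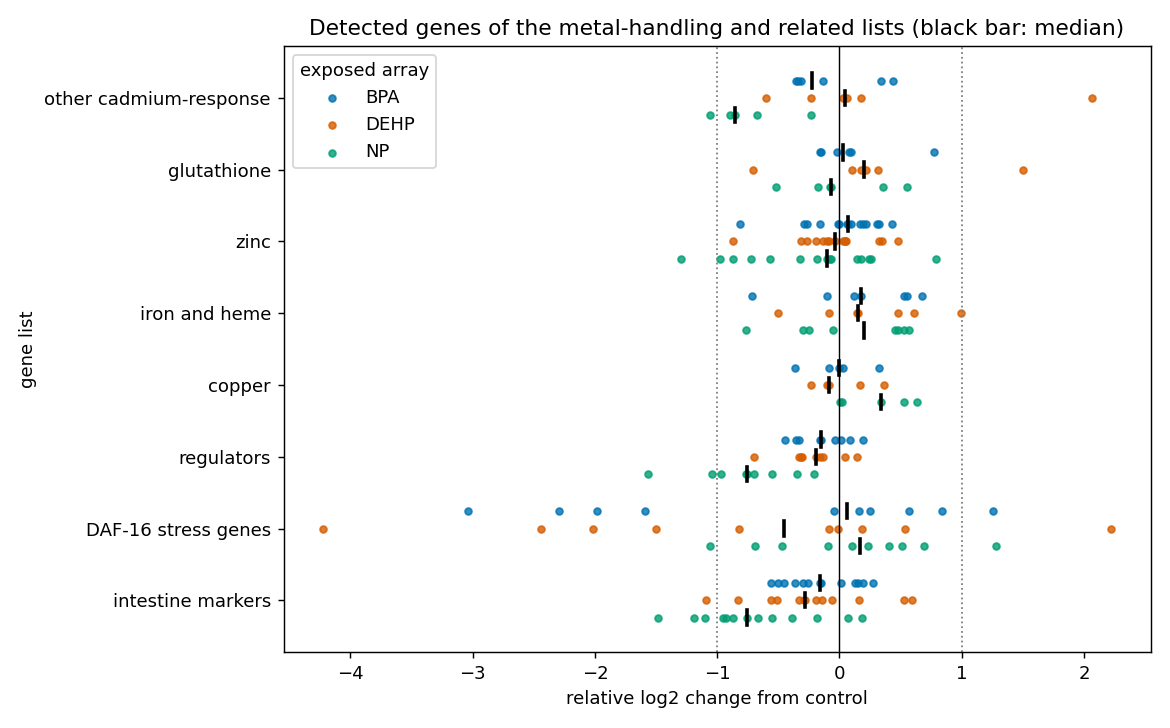
Relative log2 change from the control of the detected genes of 8 lists on the BPA, DEHP and NP arrays, 1 array each. Each point is a gene, black bars are list medians and dotted lines mark 2-fold. The zinc, iron and copper genes lie within 2-fold apart from zipt-2.2 for NP, and the stress genes spread from -4.22 to 2.22.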

How the data were processed

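The series is 4 one-colour Affymetrix C. elegans Genome arrays, 1 a group, of biotin-labelled total RNA, per the labels. The deposited intensity values are linear and share a 2% trimmed mean of about 500.1, so the authors had scaled them; the sources used here name no summary method, software or build. After 77 control probe sets were set aside, 22548 remained, of which 20766 name 1 gene, 887 name several and 895 none. Only the first kind was used, with symbols updated to the WBcel235 table, and no coordinates are given.

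Intensities were scaled to the common median by shifts of -0.13, -0.12, 0.017 and 0.24 log2 for control, BPA, DEHP and NP, floored at the pooled 25th percentile (28.3) and put on the log2 scale. Each gene was read by its brightest probe set. Lists give counts and medians only. The members and lists were chosen with earlier results of these data known. Named genes were all members and up to 4 genes 2-fold from the control per list. The 2-fold muscle genes, and the 2-fold neuron genes other than eat-4 and unc-17, were counted but not named. A few list genes were named beside them, chosen after their values were seen (cdr-3, cdr-6, aco-1, iscu-1, gcs-1, icl-1, sod-3, hsp-12.3, asp-1, daf-16, elt-2, hrg-7 and unc-17). The 3 nearest genes were taken among those above the floor on all 4 arrays that reached the 75th percentile (613) on their brightest array. For ftn-1 the text names only the nearest. Marker lists for muscle, neurons, germline and epidermis served as a label check and stand beside the intestine list. Alternatives were 8 planned and 2 added settings. The steps were tested on simulated data, with changes of 2 log2 planted in bright genes only. Dim genes and changes near 2-fold were thus not tried. The steps were run in Python 3.11.15 with statsmodels 0.14.6 for loess.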

Additional observations from a re-analysis of the deposited data

How the results depend on the processing

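No paired analysis was possible because each group has 1 array. All 14 differences of members that were at least 2-fold kept their direction under each of the 8 planned and 2 added settings in which the gene was detected, and 10 of the 14 stayed 2-fold throughout; the others were those of ftn-1 for DEHP and NP against the control and of cdr-4 between DEHP and the other exposed arrays. The number of members 2-fold from the control on the NP array, 1 as reported, was 0 after quantile normalization, after loess, with only genes above the 75th percentile kept and with centring on genes of like span, and 2 (mtl-1 and ftn-1) without the filter on dim genes or without centring on the median gene. Between BPA and NP it went from 2 to 1 above the 75th percentile, where cdr-1 is not kept. Apart from these, the counts of 2-fold members stayed within 1.5 times. For mtl-1 the change ran from -1.78 to -1.70 for BPA, from -2.03 to -1.78 for DEHP and from 0.60 to 1.19 for NP. The other lists were recomputed under the same 10 settings after seeing the data. The medians of the regulator, cadmium-response and intestine lists for NP stayed below 0 in all 10, from -1.14 to -0.37, from -0.86 to -0.16 and from -1.05 to -0.38, while the small NP medians of the zinc, iron, copper and glutathione lists kept their sign in 7, 8, 9 and 7 of the 10. The number of regulators 2-fold lower for NP ran from 1 to 4, and that of DAF-16 stress genes lower for BPA and for DEHP was 4 each, but 1 each above the 75th percentile. In the iron list hrg-7 was 2-fold higher for DEHP under 5 settings.

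Over all genes, the share of higher genes among those 2-fold from the control on the NP array was 18.6% (172 higher, 753 lower), but 30.9% after quantile normalization (242 and 541) and after loess (251 and 562), and 70.6% without centring (764 and 318). For DEHP it was 33% (251 and 510), and 51.7% without centring (391 and 365). Between BPA and NP it was 74% (591 and 208), 60.1% after quantile normalization, 59.8% after loess and 23.8% without centring. Between BPA and DEHP and between DEHP and NP it was 57.2% and 71.9%, and 42.4% and 42.7% without centring. Without the filter on dim genes, 738, 1336 and 1561 genes were 2-fold from the control for BPA, DEHP and NP, against 239, 761 and 925 with it, and above the 75th percentile 77, 262 and 329. Between exposed arrays (BPA and DEHP, BPA and NP, DEHP and NP) the counts were 437, 799 and 663, against 1049, 1678 and 1251 without the filter and 162, 311 and 256 above the 75th percentile. Dim signals limit cdr-1 most.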
